A study of Mus musculus with 9 samples.

Results

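The genes described here are 10 mouse genes of myeloid inflammation and the acute phase, Saa3, Hp, S100a8, S100a9, Il6, Il1rn, Cxcl3, Fpr2, Ptgs2 and Tnfaip2. They are 10 of 18193 genes measured, and each had a probe set (a group of array probes) annotated with that symbol alone. They were chosen by their array signal: it was lower in T cells kept with antibodies to CD3 and CD28 than in T cells kept with syngeneic dendritic cells, with no numeric limit. That comparison is therefore given as a description, and so are the others, which share arrays with it. The samples were C57BL/6 T lymphocytes after 24 h of culture in 3 groups of 3 arrays each. Allogeneic cultures held dendritic cells of the foreign strain BALB/c, anti-CD3/CD28 cultures held 0.1 µg/ml of the antibodies to CD3e and CD28, and syngeneic cultures held C57BL/6 dendritic cells. Dendritic cells were added at 1 per 20 T cells, and none are named for the antibody cultures. In every group T cells were recovered with CD11c beads and magnetic negative selection, crosslinked with ultraviolet A light and lysed. Argonaute (AGO), the protein that holds microRNAs together with the transcripts they pair with, was then immunoprecipitated. Each value is the log2 array signal of RNA recovered with AGO, which mixes how abundant a transcript was with how much AGO held it, and fewer cells of a type cannot be told apart from less RNA per cell. The labels number the arrays of each group as biological replicates 1 to 3 and name no animals or cultures, so the spread between arrays may be partly technical.

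Serum amyloid A3 and haptoglobin are acute-phase proteins, made when interleukin-6 and interleukin-1 act on liver, macrophages or stroma. S100a8 and S100a9 pair to form calprotectin, an abundant protein of neutrophils and monocytes that signals through the receptor TLR4. In macrophages and dendritic cells, microbial products or interleukin-1 switch on Il6, Cxcl3 and Ptgs2 through the transcription factors NF-κB and C/EBP. Resting or activated T cells are not known as a main source of most of these proteins.

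In the mean over 3 arrays, each of the 10 genes was highest in syngeneic, intermediate in allogeneic and lowest in anti-CD3/CD28 cultures, an order held by 20.5% of all genes. All 10 had a lower mean in allogeneic than in syngeneic culture (41.7% of all genes) and in anti-CD3/CD28 than in syngeneic culture (47.2%), and a higher mean in allogeneic than in anti-CD3/CD28 culture (60.1%). A difference of means of 1 or more on the log2 scale was reached by 5 of the 10 for allogeneic below syngeneic (0.753% of all genes), by 10 for anti-CD3/CD28 below syngeneic (2.81%) and by 8 for allogeneic above anti-CD3/CD28 (1.2%). The median log2 difference of the 10 genes was −1.11 for allogeneic minus syngeneic, against 0.03 over all genes. It was −2.98 for anti-CD3/CD28 minus syngeneic, the contrast used to pick them, against 0.00 over all genes. For allogeneic minus anti-CD3/CD28 it was 1.57, against 0.04. In limma's test over all 18193 genes, 0 of the 10 were called in any of the 3 comparisons, and neither was any other gene (0% called each, adjusted p under 0.05), with or without replicate number as a block. At an unadjusted p under 0.05 limma had 6 genes higher and 21 lower in allogeneic than in syngeneic, 15 higher and 141 lower in anti-CD3/CD28 than in syngeneic, and 23 higher and 1 lower in allogeneic than in anti-CD3/CD28 cultures. The sizes below thus carry wide errors.

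**Figure D1:**
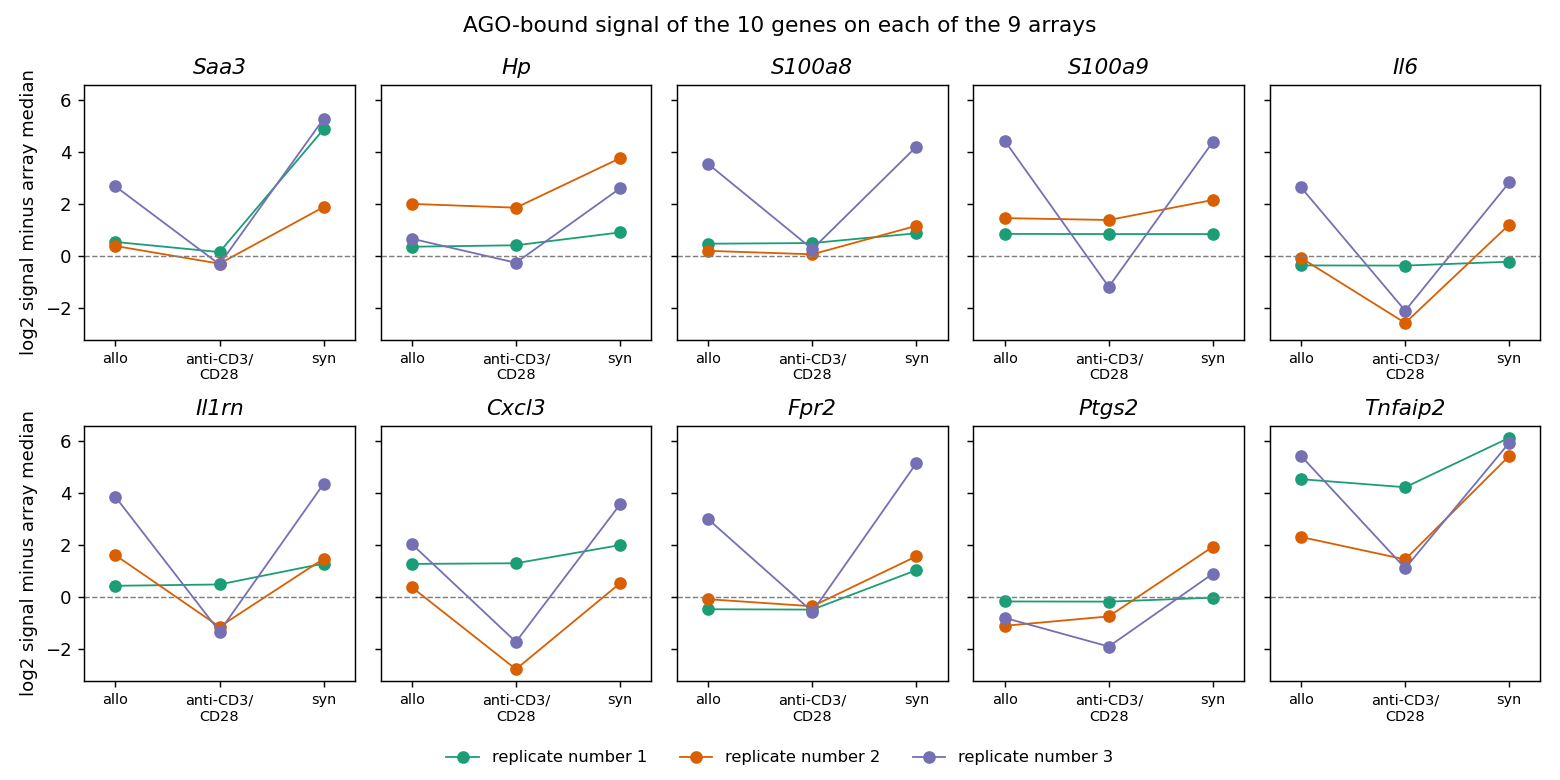
Log2 signal minus the array's median over all probe sets (vertical axis) for each of the 10 genes in allogeneic, anti-CD3/CD28 and syngeneic cultures (horizontal axis); lines join arrays with the same replicate number, and the dashed line is the array median. On the arrays numbered 3 all 10 genes are lowest in anti-CD3/CD28, while on those numbered 1 the allogeneic and anti-CD3/CD28 points nearly coincide.

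The size of the differences varied with the replicate number. In number 3, all 10 genes were lower in anti-CD3/CD28 than in syngeneic cultures, with log2 differences of −5.67 to −2.75. In number 2 all 10 were lower, at −3.99 to −0.77. In number 1 the range was −4.73 to 0.00, with 9 lower and 1 exactly equal. The allogeneic and anti-CD3/CD28 arrays numbered 1 were close to each other, with an SD of their difference of 0.103 over all genes and 49% of genes exactly equal, though Saa3 differed by 0.38. The same SD was 0.493 in number 2 and 0.680 in number 3. How exactly equal values arose in the deposited table was not tested.

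The regulatory sequence upstream of these genes is shown for 4 members of different roles that hold a match to an NF-κB or C/EBP motif. The windows are RefSeq promoters of GRCm38.p6, 300 bases long and mostly upstream of a transcription start, written 5′ to 3′ on the gene's strand. Capitals mark matches to the letters GGG, any 2 bases and TTTCC (NF-κB) or to TTGCNNAA (C/EBP), searched on both strands. The Saa3 window is chr7:46715627-46715926 (minus strand), that of Il6 is chr5:30012864-30013163, that of Cxcl3 is chr5:90785851-90786150 and that of Ptgs2 is chr1:150099781-150100080 (plus strand).
Saa3 promoter: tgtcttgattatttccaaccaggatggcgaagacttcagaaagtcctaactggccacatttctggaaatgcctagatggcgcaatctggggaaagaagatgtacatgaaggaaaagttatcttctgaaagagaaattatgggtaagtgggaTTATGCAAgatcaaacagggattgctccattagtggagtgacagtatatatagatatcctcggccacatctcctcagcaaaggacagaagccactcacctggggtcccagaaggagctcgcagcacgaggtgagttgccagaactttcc
Il6 promoter: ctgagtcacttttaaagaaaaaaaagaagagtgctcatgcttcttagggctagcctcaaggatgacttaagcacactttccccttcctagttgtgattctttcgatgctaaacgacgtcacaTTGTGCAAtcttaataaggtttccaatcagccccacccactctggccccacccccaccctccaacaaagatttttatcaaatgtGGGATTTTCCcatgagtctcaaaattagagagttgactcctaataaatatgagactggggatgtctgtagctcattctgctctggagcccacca
Cxcl3 promoter: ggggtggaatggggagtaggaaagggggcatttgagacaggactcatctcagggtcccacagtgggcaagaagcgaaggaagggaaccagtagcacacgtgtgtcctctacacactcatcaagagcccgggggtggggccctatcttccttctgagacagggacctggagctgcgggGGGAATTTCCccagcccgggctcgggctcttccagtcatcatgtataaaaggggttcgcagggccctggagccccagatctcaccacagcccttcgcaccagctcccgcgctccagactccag
Ptgs2 promoter: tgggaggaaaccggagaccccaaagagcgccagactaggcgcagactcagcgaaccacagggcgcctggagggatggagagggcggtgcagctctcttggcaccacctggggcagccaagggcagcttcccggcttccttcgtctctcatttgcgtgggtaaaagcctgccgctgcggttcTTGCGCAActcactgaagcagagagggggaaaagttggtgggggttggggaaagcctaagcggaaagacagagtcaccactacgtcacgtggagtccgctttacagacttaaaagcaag
In the Il6 window the NF-κB match lay at −44 to −35 and the C/EBP match at −128 to −121 from the start. In the Cxcl3 window the NF-κB match lay at −73 to −64. The C/EBP match lay at −99 to −92 in the Saa3 window and at −69 to −62 in the Ptgs2 window. Promoter windows were found for 9 of the 10 genes, 11 windows in all, as Il1rn had several. The counts that follow are of genes, whereas the shares are of windows. Counted by window, matches were in 4 of 11 (NF-κB), 4 (TTGCNNAA), 8 (TTNNGNAA) and 5 (TATAAA). Overlapping Il1rn windows held the same NF-κB match. The NF-κB letters occurred in 3 of these 9 genes (Il6, Cxcl3 and Il1rn) and in 1.63% of 32851 windows of the same length. TTGCNNAA occurred in 4 (Saa3, S100a9, Il6 and Ptgs2) and in 10.8% of all windows, and the looser TTNNGNAA, which contains it, in 7 and in 40.7%. TATAAA, found in 13.6% of all windows, occurred in 5 (S100a8, S100a9, Cxcl3, Il1rn and Fpr2). The letters were chosen after the windows had been read, and a match is a description, not a binding site.

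Among the acute-phase genes, Saa3 had log2 signals of 5.11, 6.04 and 7.48 on allogeneic arrays 1 to 3, 4.73, 5.29 and 4.60 on anti-CD3/CD28 arrays, and 9.46, 7.47 and 10.14 on syngeneic arrays. The syngeneic arrays were the highest of each replicate number, and the allogeneic and syngeneic ranges touched only at 7.48 and 7.47. The mean was 6.21 ± 1.19 in allogeneic and 9.02 ± 1.39 in syngeneic cultures (SD, n = 3 each), a log2 difference of −2.81 ± 0.81 (SE of the limma fit). In number 1 Saa3 was 20.3-fold lower in allogeneic and 26.5-fold lower in anti-CD3/CD28 than in syngeneic culture, the widest gap of any of the 10 genes in that number. Its rank on the array moved likewise: it stood at percentiles 67.9, 57.7 and 72.4 of all probe sets on allogeneic arrays, at 57.4, 44.1 and 46.0 on anti-CD3/CD28 arrays and at 94.1, 79.1 and 93.9 on syngeneic arrays.

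Hp, which encodes the haemoglobin-binding protein haptoglobin, stood at 4.93, 7.66 and 5.46 on allogeneic arrays, 4.99, 7.45 and 4.66 on anti-CD3/CD28 arrays and 5.49, 9.35 and 7.47 on syngeneic arrays. The syngeneic array was again highest in each number, but the array numbered 2 was highest in each culture, so the groups overlapped. Allogeneic minus syngeneic was −0.56, −1.69 and −2.00 in numbers 1 to 3, and anti-CD3/CD28 minus syngeneic was −0.49, −1.90 and −2.81. Hp hardly separated allogeneic from anti-CD3/CD28 cultures, with differences of −0.06, 0.21 and 0.81.

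For the calprotectin genes, anti-CD3/CD28 cultures lay furthest below syngeneic cultures in number 3, whereas allogeneic cultures lay furthest below them in number 2. S100a8 had signals of 5.05, 5.85 and 8.34 on allogeneic arrays, 5.08, 5.65 and 5.18 on anti-CD3/CD28 arrays and 5.45, 6.75 and 9.07 on syngeneic arrays. S100a9 had 5.42, 7.11 and 9.23 on allogeneic arrays, 5.42, 6.97 and 3.73 on anti-CD3/CD28 arrays and 5.42, 7.74 and 9.25 on syngeneic arrays. In number 3, S100a9 differed by −5.52 between anti-CD3/CD28 and syngeneic culture, a size left uncertain by an anti-CD3/CD28 signal below the array median, while its allogeneic and syngeneic signals differed by 0.02. In number 1 its signal was exactly equal in all 3 cultures. For allogeneic minus syngeneic the means differed by −0.68 ± 0.98 for S100a8 and −0.22 ± 1.16 for S100a9 (SE). With replicate number as a block the SEs were 0.75 and 1.26. Within the numbers S100a8 was lower in allogeneic culture each time, with differences of −0.41, −0.90 and −0.74, and S100a9 differed by 0.00, −0.63 and −0.02. Over the 9 arrays, with the mean of each replicate number taken off, the 2 genes had a correlation of 0.97. That value is a description, since the arrays share their replicate numbers and both genes were picked on the same contrast.

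**Figure D2:**
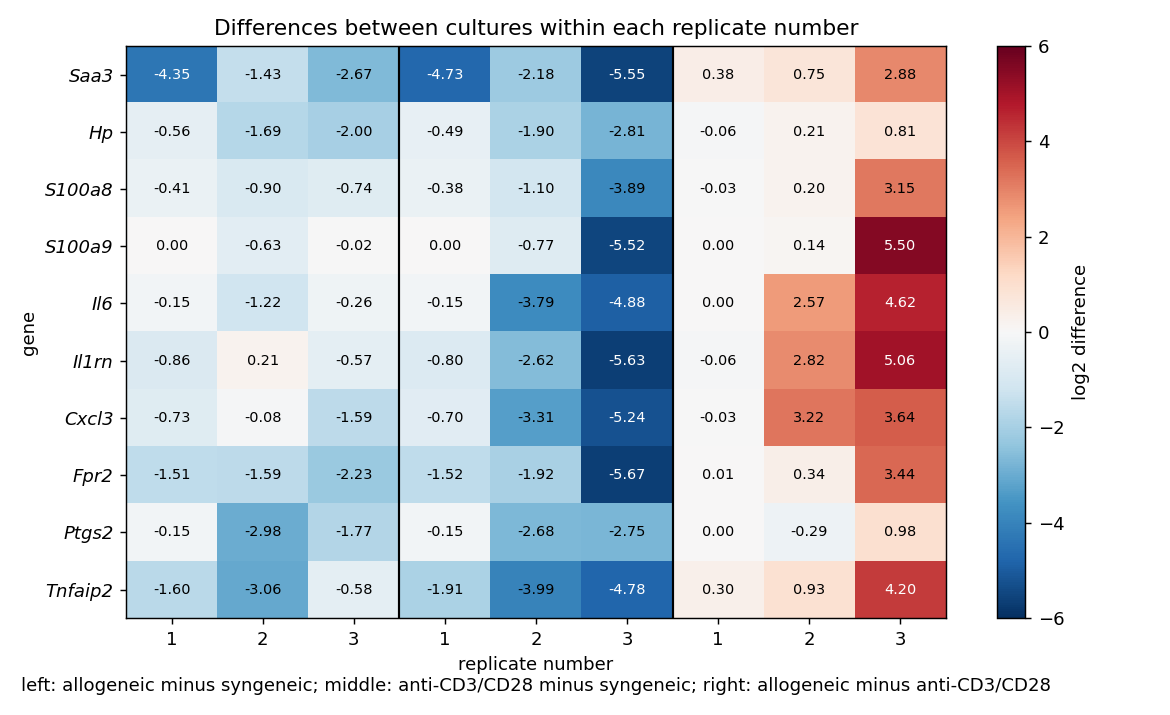
Log2 differences between cultures within replicate numbers 1, 2 and 3 (columns) for the 10 genes (rows), as allogeneic minus syngeneic (left block), anti-CD3/CD28 minus syngeneic (middle block) and allogeneic minus anti-CD3/CD28 (right block); blue is lower and red higher in the culture named first. In number 3, S100a9, Il6, Il1rn and Tnfaip2 are pale in the left block (−0.02, −0.26, −0.57 and −0.58). They are dark blue in the middle block (−5.52, −4.88, −5.63 and −4.78). S100a8 is similar (−0.74 and −3.89), whereas Saa3, Hp, Fpr2 and Ptgs2 are blue in both.

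The cytokine Il6, the main inducer of the hepatic acute phase, stood at 4.21, 5.58 and 7.44 on allogeneic arrays, 4.21, 3.01 and 2.81 on anti-CD3/CD28 arrays and 4.36, 6.80 and 7.70 on syngeneic arrays. On the anti-CD3/CD28 arrays numbered 2 and 3 it lay at percentiles 9.5 and 0.8 of all probe sets. The allogeneic arrays of those numbers were at 48.3 and 72.1 and the syngeneic arrays at 70.5 and 74.7. Only 3 of the 9 arrays had Il6 above the array median, and values that low leave the size of a difference uncertain. Allogeneic minus anti-CD3/CD28 was 0.00, 2.57 and 4.62 in numbers 1 to 3.

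Il1rn encodes the interleukin-1 receptor antagonist, a secreted protein that blocks interleukin-1 signalling. Its signal was 5.01, 7.27 and 8.66 on allogeneic arrays, 5.07, 4.45 and 3.60 on anti-CD3/CD28 arrays and 5.88, 7.07 and 9.23 on syngeneic arrays. Allogeneic and syngeneic cultures overlapped, with differences of −0.86, 0.21 and −0.57 within the numbers, and number 2 was the only case among the 10 genes in which the allogeneic array exceeded the syngeneic one. Allogeneic minus anti-CD3/CD28 was 2.82 in number 2 and 5.06 in number 3. Their size is uncertain too, since both anti-CD3/CD28 signals were below the array median. The other 2 probe sets of Il1rn had allogeneic minus anti-CD3/CD28 means of 1.99 and 1.29, against 2.61 for the brightest, and allogeneic minus syngeneic means of 0.04 and −0.56, against −0.41.

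Cxcl3, a chemokine that draws neutrophils through the receptor Cxcr2, had signals of 5.86, 6.04 and 6.84 on allogeneic arrays, 5.89, 2.82 and 3.20 on anti-CD3/CD28 arrays and 6.59, 6.12 and 8.44 on syngeneic arrays. On the anti-CD3/CD28 arrays numbered 2 and 3 it lay at percentiles 7.4 and 14.5, and on every other array between 57.7 and 81.5. Cxcl3 and Il1rn were among the closest pairs of the 10 genes, with a correlation of 0.97 over the 9 arrays centred on their replicate numbers. Both genes were picked on the same contrast, so this too is a description.

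Fpr2 encodes a formyl peptide receptor of phagocytes that also binds serum amyloid A and annexin A1. It stood at 4.11, 5.58 and 7.80 on allogeneic arrays, 4.10, 5.24 and 4.36 on anti-CD3/CD28 arrays and 5.62, 7.16 and 10.03 on syngeneic arrays. Allogeneic minus syngeneic was −1.51, −1.59 and −2.23 in numbers 1 to 3, the most even of the larger differences. Even so, its means were 5.83 ± 1.86 and 7.61 ± 2.24 (SD, n = 3 each) because the signal differed more between numbers than between cultures. In number 3 Fpr2 was 4.69-fold lower in allogeneic than in syngeneic culture. Anti-CD3/CD28 minus syngeneic was −5.67 there, but the anti-CD3/CD28 signal lay below the array median, so no fold is given.

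Ptgs2 encodes cyclooxygenase-2, which makes the precursor of the prostaglandins. It stood at 4.41, 4.56 and 4.00 on allogeneic arrays, 4.41, 4.85 and 3.02 on anti-CD3/CD28 arrays and 4.56, 7.53 and 5.77 on syngeneic arrays. The highest allogeneic and the lowest syngeneic array both read 4.56, so the groups met there, and Ptgs2 exceeded the array median only on syngeneic arrays 2 and 3. For its second probe set allogeneic minus syngeneic was −1.31 and −0.79 in numbers 2 and 3, and 0.08, higher in allogeneic, in number 1. By its brightest probe set, Ptgs2 was with Hp the gene that least separated allogeneic from anti-CD3/CD28 cultures (mean difference 0.23 ± 0.75, SE). The second probe set had allogeneic minus anti-CD3/CD28 differences of 0.04, 0.29 and 2.23 in numbers 1 to 3 (mean 0.85).

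Tnfaip2, a gene induced by tumour necrosis factor and linked to membrane nanotubes, had signals of 9.12, 7.97 and 10.24 on allogeneic arrays, 8.82, 7.04 and 6.04 on anti-CD3/CD28 arrays and 10.72, 11.03 and 10.81 on syngeneic arrays. By these signals the syngeneic arrays agreed closely, with a mean of 10.85 ± 0.16 (SD, n = 3), and every other array lay below them. With the array median taken off, they stood at 6.13, 5.43 and 5.94, and allogeneic array 3 stood at 5.43, so the gap nearly closed. The mean was 9.11 ± 1.13 in allogeneic culture, a log2 difference of −1.75 ± 0.74 (SE). This probe set is of the kind marked as open to cross-hybridisation by its name. Of the other 2, the first had allogeneic minus syngeneic differences of −0.14, −0.40 and −0.23 and anti-CD3/CD28 minus syngeneic differences of −0.14, −1.06 and −4.19. The last probe set showed no such pattern, with group means of 5.32, 5.18 and 5.21 in allogeneic, anti-CD3/CD28 and syngeneic cultures.

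Counted over the 10 genes, 8 were lower in allogeneic than in syngeneic culture within each of the 3 replicate numbers, the exceptions being S100a9 and Il1rn, against 7.96% of all genes. For 2 genes, Ptgs2 and Tnfaip2, the allogeneic and syngeneic arrays did not overlap (0.451% of all genes). For Ptgs2, though, the nearest arrays are equal to 2 decimals, and for Tnfaip2 they are so once array medians are taken off. In the contrast used to pick them, 9 were lower within each number (9.15% of all genes) and 6 did not overlap (1.52%), from which nothing is read. For 3 genes, Saa3, Tnfaip2 and Fpr2, allogeneic arrays exceeded anti-CD3/CD28 arrays within each number (4.39% of all genes), and for 0 were those groups free of overlap (0.269%). Since every comparison shares arrays with the one that chose the genes, these shares are given side by side and not as support. The 45 pairwise correlations among the 10 genes, over 9 arrays centred on their replicate numbers, ran from 0.59 (Ptgs2 and S100a9) to 0.97, with a median of 0.859. All 10 genes were picked on the same difference between cultures, which by itself favours high correlations, so nothing is read from their size.

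By the same measure, the 8 genes outside the set whose pattern was most like its mean, of 3157 brighter genes without exactly equal values, were Myadm (r = 0.999), Dusp1 (0.998), Nfkbie (0.990), Gpc1 (0.990), Serpinb6a (0.989), Anxa1 (0.989), S100a6 (0.989) and Procr (0.988). Dusp1 is a phosphatase that switches off MAP kinases, and Nfkbie an inhibitor of NF-κB. Dusp1 stood at 9.25, 8.82 and 10.03 on allogeneic arrays, 9.20, 8.27 and 8.07 on anti-CD3/CD28 arrays and 9.88, 9.44 and 10.65 on syngeneic arrays. Anxa1 encodes annexin A1 and averaged 5.96 in allogeneic, 4.81 in anti-CD3/CD28 and 7.10 in syngeneic cultures. These values are likewise descriptions over 9 arrays that share replicate numbers.

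Other genes of the same pathways were taken from lists, and limma called 0 of them in any comparison. Where 2 counts or 2 differences stand together, the first is allogeneic and the second anti-CD3/CD28, each against syngeneic culture. Of 17 other acute-phase genes measured, 8 had a lower mean in allogeneic than in syngeneic culture and 10 in anti-CD3/CD28, with medians of 0.01 and −0.07. Saa1, Saa2 and Orm1 differed by −0.16, 0.12 and −0.02 between allogeneic and syngeneic culture. Between anti-CD3/CD28 and syngeneic culture they differed by −0.26, 0.01 and −0.88. Hpx, Crp, Fgg, Saa4, Orm3, Itih3, Itih4 and Apcs exceeded the array median on 0 of 9 arrays. The list medians thus rest in part on genes with low signal. Within this list Lcn2, a siderophore-binding protein of neutrophils and macrophages, had the lowest differences, −0.98 in allogeneic and −2.64 in anti-CD3/CD28 against syngeneic culture. Saa3 and Hp, picked for their differences, are set beside the list in the plot of pathway genes.

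**Figure D3:**
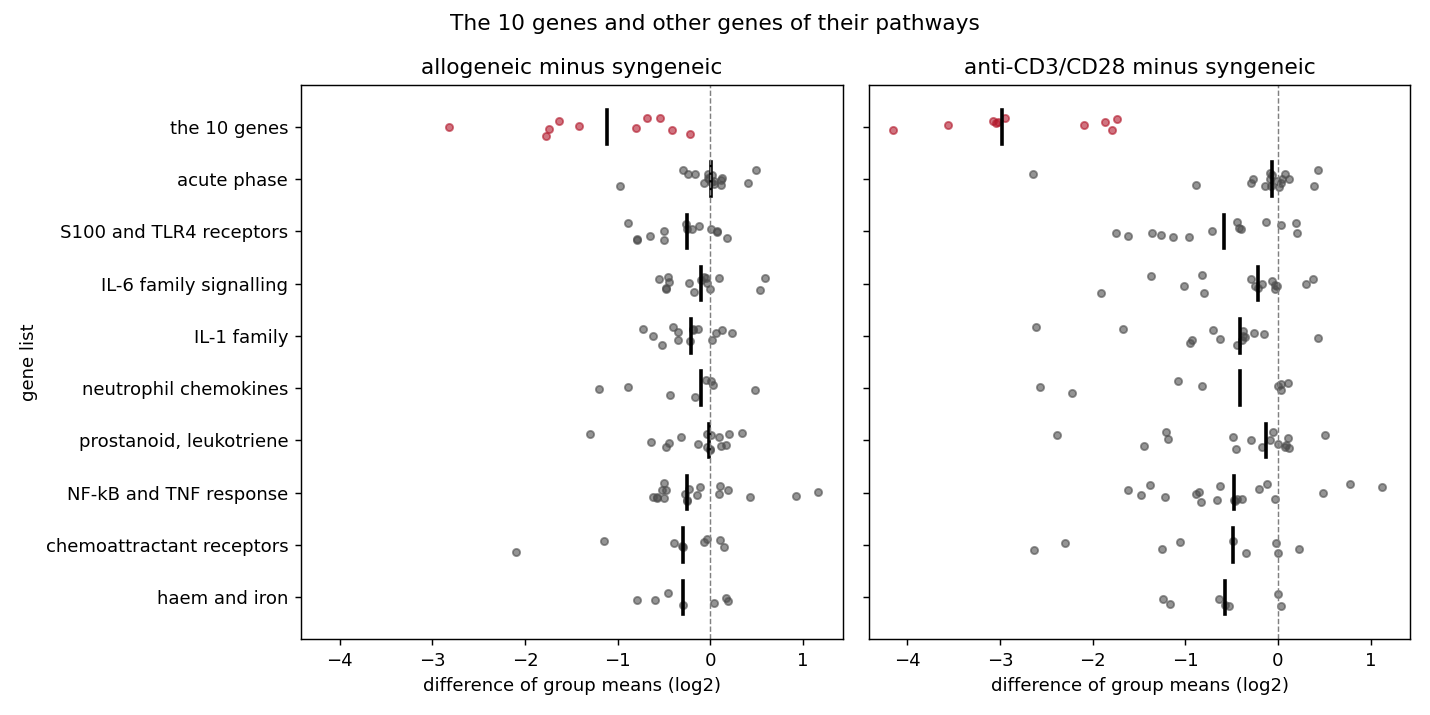
Log2 difference of group means (horizontal axis) for the 10 genes (red) and for the measured genes of 9 pathway lists (grey), as allogeneic minus syngeneic (left) and anti-CD3/CD28 minus syngeneic (right); points are genes, displaced at random in height, and black bars are list medians. The median is 0.01 and −0.07 for the other acute-phase genes and −0.20 and −0.41 for the IL-1 family.

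Interleukin-1 family genes had medians of −0.20 and −0.41 for allogeneic and anti-CD3/CD28 against syngeneic culture, with 10 and 13 of 14 lower. Il1b, the cytokine that Il1rn opposes, stood at 5.70, 6.51 and 10.14 on allogeneic arrays, 5.61, 6.25 and 4.81 on anti-CD3/CD28 arrays and 5.81, 7.88 and 10.81 on syngeneic arrays. As with Il1rn, the anti-CD3/CD28 array of number 3 was far below the others of its number. The decoy receptor gene Il1r2 differed by −0.61 ± 0.92 and −1.67 ± 0.92 (SE) against syngeneic culture. Of 15 interleukin-6 signalling genes, 11 and 13 were lower. Socs3, the feedback inhibitor of that receptor, averaged 10.16 ± 0.65 in allogeneic, 8.81 ± 0.87 in anti-CD3/CD28 and 10.72 ± 0.40 in syngeneic cultures (SD, n = 3 each). The kinase gene Jak2 differed by −0.45 and −1.02 and the transcription factor gene Cebpb by −0.48 and −1.37.

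Among 8 neutrophil-attracting chemokines, platelet chemokines and receptors, 5 and 4 were lower, with medians of −0.10 and −0.41. The list ran from Cxcl2 (−1.20 and −2.56) to Cxcl15 (0.48 and 0.11). Cxcl2 exceeded the array median on 5 of 9 arrays, so the size of its differences is uncertain. Cxcl1 stood at 7.03, 8.71 and 9.20 on allogeneic arrays, 7.03, 7.54 and 4.98 on anti-CD3/CD28 arrays and 7.03, 9.70 and 9.49 on syngeneic arrays. Its signal was equal in all 3 cultures of number 1, and in numbers 2 and 3 it was lowest in anti-CD3/CD28 culture. Cxcr2, the receptor of these chemokines, exceeded the array median on 0 arrays. Of 9 chemoattractant receptor genes and ligands 7 and 7 were lower. C5ar1, the receptor for complement C5a, stood at 4.32, 7.07 and 4.19 on allogeneic arrays, 4.27, 6.40 and 3.30 on anti-CD3/CD28 arrays and 6.21, 8.61 and 7.04 on syngeneic arrays. Like Hp and the brightest probe set of Ptgs2, it differed little between allogeneic and anti-CD3/CD28 cultures. Among 16 prostanoid and leukotriene genes 8 and 10 were lower, with medians of −0.02 and −0.13. Ptger4, a receptor for a prostaglandin made from the product of Ptgs2, differed by −0.13 and −0.49.

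The remaining lists had more genes lower than higher. Of 14 other S100, alarmin and TLR4 receptor genes 10 and 11 were lower, with medians of −0.25 and −0.58, and S100a4 and S100a6 differed by −1.62 and −1.74 in anti-CD3/CD28 against syngeneic culture. Of 19 genes of the NF-κB and tumour necrosis factor response 13 and 16 were lower, with medians of −0.25 and −0.47. Nfkbia, an inhibitor of NF-κB, averaged 12.03 ± 0.20, 11.52 ± 0.43 and 12.17 ± 0.32 in allogeneic, anti-CD3/CD28 and syngeneic cultures. In this list 6 and 3 genes ran the other way. Among them were the chemokine genes Ccl4 (1.16 and 1.12) and Ccl3 (0.92 and 0.78), and Tnf (0.43 and 0.49), higher than in syngeneic culture. Of 7 haem and iron genes 4 and 5 were lower, with Hmox1 at −0.60 and −1.24.

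Markers of other cells were set beside these values. All 9 T cell markers measured exceeded the array median on all 9 arrays, at a mean of 4.04 to 6.13 above it in allogeneic, 4.56 to 6.27 in anti-CD3/CD28 and 4.14 to 6.08 in syngeneic cultures. The mean of 15 macrophage and monocyte markers lay 0.30 to 0.50 above the array median in allogeneic, −0.62 to 0.47 in anti-CD3/CD28 and 1.66 to 1.82 in syngeneic cultures. All 15 had a lower mean in allogeneic and in anti-CD3/CD28 than in syngeneic cultures, and 6, 5 and 8 of them exceeded the median on all 3 arrays of the allogeneic, anti-CD3/CD28 and syngeneic groups. Csf1r, the defining receptor of macrophages, exceeded it on 2, 0 and 3 arrays. Itgam and C1qa did so on no array. For the 10 genes themselves the mean lay 0.70 to 2.74 above the median in allogeneic, −0.81 to 0.68 in anti-CD3/CD28 and 1.76 to 3.92 in syngeneic cultures. The part of these cells in the differences of the 10 genes was not tested.

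**Figure D4:**
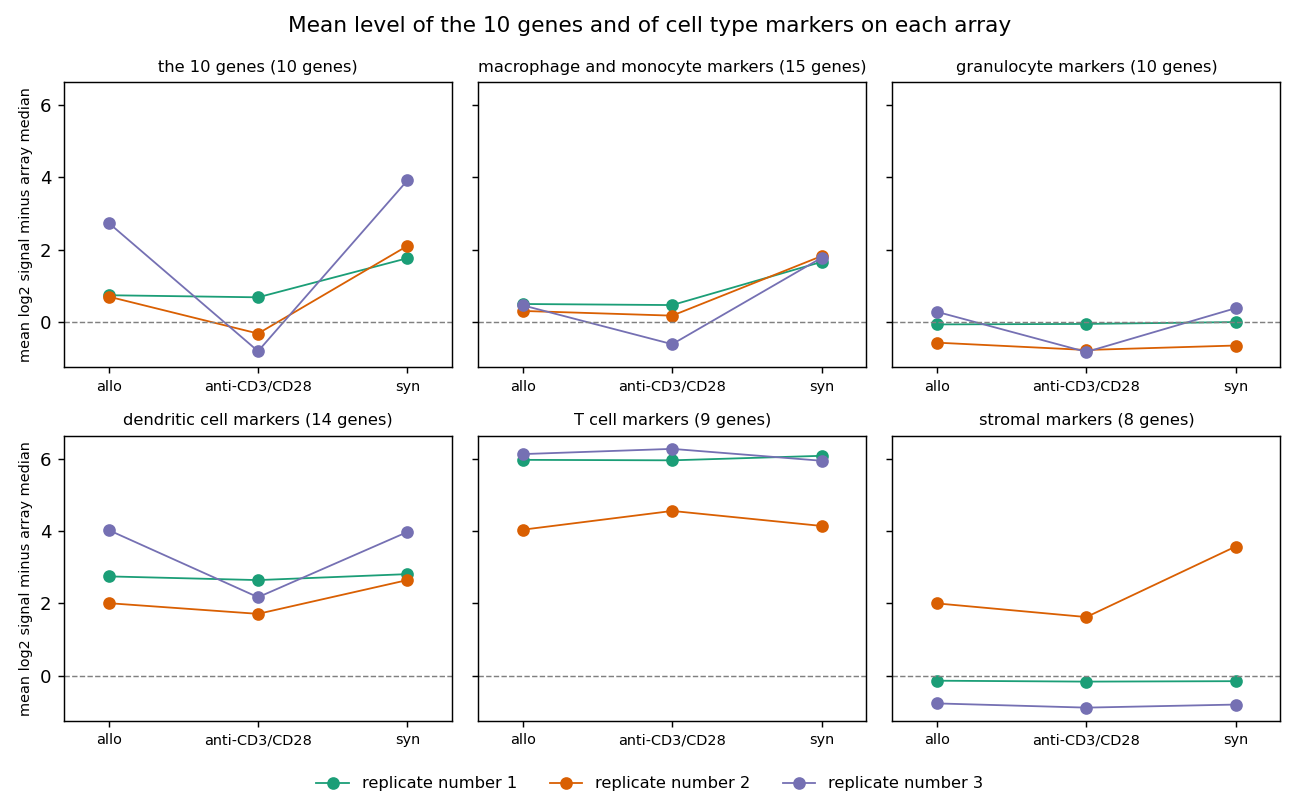
Mean log2 signal minus the array median (vertical axis) of the 10 genes and of 5 marker lists in the 3 cultures; lines join arrays with the same replicate number. Macrophage and monocyte markers are highest in syngeneic culture in each number, granulocyte markers lie between −0.83 and 0.38, and dendritic cell markers in number 3 are at 4.02 in allogeneic, 2.17 in anti-CD3/CD28 and 3.97 in syngeneic culture.

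Dendritic cell markers, 14 in all, had means of 2.00 to 4.02 in allogeneic, 1.71 to 2.64 in anti-CD3/CD28 and 2.64 to 3.97 in syngeneic cultures, on the same scale. In each group 10 of these genes exceeded the median on all 3 arrays, while Xcr1 and Cd209a did so on no array. In number 3 the list mean stood at 4.02, 2.17 and 3.97. The signals of Ccl17 were 12.16, 5.86 and 11.87 and those of Fscn1 12.16, 7.72 and 11.59 in that number. Ccr7 hardly changed there, at 12.25, 12.12 and 12.20. There S100a9, Il6, Il1rn and Tnfaip2 were also close in allogeneic and syngeneic cultures and far lower in anti-CD3/CD28. S100a8 was similar, at −0.74 in allogeneic and −3.89 in anti-CD3/CD28 against syngeneic culture. The part of dendritic cell RNA in that result was not tested. Granulocyte markers, for which S100a8 and S100a9 would usually serve, were near the array median without them: the mean of 10 others ran from −0.57 to 0.28 in allogeneic, −0.83 to −0.06 in anti-CD3/CD28 and −0.65 to 0.38 in syngeneic cultures. Of these 10, the genes above the median on the most arrays were Ngp (6 of 9), Mmp9 (5) and Mpo (4), while Elane was above it on 1 and Csf3r on 0. Against syngeneic culture, 5 of the 10 had a lower and 5 a higher mean in allogeneic, and 7 a lower and 3 a higher mean in anti-CD3/CD28. Mmp8, a neutrophil collagenase, had the lowest differences of the list, −0.93 and −1.47. It stood at 5.30, 3.47 and 7.21 in allogeneic, anti-CD3/CD28 and syngeneic culture of number 3, where S100a8 and S100a9 were also lowest in anti-CD3/CD28. Mpo, Mmp9 and Ctsg were also lower there, at 3.85, 3.73 and 4.22 in anti-CD3/CD28 against 6.61, 6.07 and 5.84 in syngeneic culture. Of this list only Ltf and Csf3r ran the other way there, at 4.21 and 4.21 in anti-CD3/CD28 and 3.80 and 3.99 in syngeneic culture. Camp was equal in both. Relative to the array median, the list mean in number 3 was 0.28, −0.83 and 0.38 in allogeneic, anti-CD3/CD28 and syngeneic culture. The part of granulocyte RNA in the calprotectin values was not tested. Stromal markers stood apart in number 2, at 2.00, 1.62 and 3.57 in allogeneic, anti-CD3/CD28 and syngeneic cultures, and below the median in numbers 1 and 3. On the same scale Hp and the brightest probe set of Ptgs2 in syngeneic culture were also highest in number 2, at 3.75 and 1.93. Hp was highest in number 2 in the other cultures as well, and the second probe set of Ptgs2 was not highest there. Tnfaip2 in syngeneic culture was highest in number 2 by signal (11.03) but not on this scale (5.43). The part of stromal RNA in these values was not tested. Hepatocyte markers, with a mean between −0.39 and 0.81 on every array, had group differences of −0.29 to 0.25 in the 3 comparisons.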

How the data were processed

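The measurement was RNA recovered with AGO from 9 mouse T cell samples, 1 expression array each. The deposited log2 signals per probe set were made by the authors with RMA (robust multi-array average), per the submitters' processing notes. Which program ran it is not stated there, and the values were used as deposited. The median signal of an array was 4.58 to 5.67 (log2). By replicate number it was 4.58 to 4.59 in 1, 5.60 to 5.67 in 2 and 4.81 to 4.93 in 3. Signals of single genes are printed without taking this off unless stated. Precision is limited by the number of arrays. Of 45101 probe sets, 34945 have 1 gene symbol in the platform annotation, 932 several and 9160 none, and 64 are controls. Symbols were updated by gene ID where possible (34741 probe sets). Each of 18193 genes was represented by the probe set with the highest mean.

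Groups and replicate numbers came from the sample titles. Differences were fitted with limma 3.58.1 in R 4.3.3 (1 mean per group, all 9 arrays, intensity trend, Benjamini-Hochberg adjustment, threshold 0.05), checked on simulated data. The replicate numbers were treated as pairing only in differences within numbers, in centred correlations and in the replicate block. Once group means were taken off, arrays with the same number correlated at 0.811 to 0.921 (9 pairs). Printed SEs come from the fit without the block unless stated, so they include the spread between numbers. In each comparison the median SE over all genes was 0.639 without the block and 0.156 with it. The members, lists and motifs were chosen with earlier results of these data known. No filter on low values was used. Under one at the 40th percentile 9 of the 10 genes remain (not Ptgs2). Genes named from lists were those with the smallest p among brighter members (up to 3 a list). Others were added after their values were seen: the acute-phase genes named, Cxcl2, Cxcl15, Cxcr2, Ccl4, Ccl3, Tnf and single markers (Mmp8 among them). Alternatives were the replicate block, quantile normalization, median centring, a filter on dim genes, no intensity trend, the mean of all probe sets and leaving out arrays.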

Additional observations from a re-analysis of the deposited data

How the results depend on the processing

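Limma called 0 genes in each comparison under the replicate block (at an unadjusted p under 0.05, 423 higher and 402 lower in allogeneic and 406 and 830 in anti-CD3/CD28, each against syngeneic, and 144 and 61 in allogeneic against anti-CD3/CD28), and the same count of 0 under every other alternative run, except that centring arrays on their medians called 1 gene, Csf1r, for anti-CD3/CD28 against syngeneic (adjusted p = 0.0485). The median difference of the 10 genes was −0.74 for allogeneic minus syngeneic with the mean of all probe sets, against −1.11, and −1.66 to −0.34 when 1 array or 1 replicate number was left out. The extremes came without syngeneic replicate 1 and without syngeneic replicate 3. The cause was not tested. For anti-CD3/CD28 minus syngeneic that range was −3.83 to −1.72, and for allogeneic minus anti-CD3/CD28 it was 0.37 (without replicate number 3) to 2.23 (without number 1). S100a8, S100a9, Il6 and Il1rn changed sign for allogeneic minus syngeneic in 2 of 15 alternatives each, for example S100a9 at 0.70 without allogeneic replicate 1 and 0.67 without syngeneic replicate 3. For allogeneic minus anti-CD3/CD28, Hp changed sign in 3 and Ptgs2 in 2. No other gene of the 10 changed sign in any comparison. Leaving out whole replicate numbers, and the alternatives for single genes, were chosen after the data were seen.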
